A study of Mus musculus with 14 samples.

Results

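The 10 genes Fos, Fosb, Fosl2, Junb, Jund, Egr1, Nr4a1, Arc, Dusp1 and Btg2 are immediate early genes or partners of AP-1, and they were followed in ribosome-bound mRNA of mouse dopaminergic neurons that lack transferrin receptor 1. They were taken by name, with every probe set that carries 1 gene symbol, which gave 13 probe sets out of 34945 tested and 10 genes out of 18193. The arrays covered 14 libraries from ventral midbrain of F2 mice of 129Sv and C57BL/6. All animals carried the RiboTag allele, an epitope tag on a ribosomal protein that lets the ribosomes of chosen neurons be pulled from a lysate of the whole tissue. Tfr1-null animals (Tfr1ΔDN) had a conditional deletion of transferrin receptor 1, the receptor that takes up transferrin-bound iron, in dopaminergic neurons, and controls were heterozygous for the Tfr1 allele. At 3 weeks of age, called early neurodegeneration by the submitters, the controls numbered 3 and the Tfr1-null libraries 4. At 10 weeks, called late neurodegeneration, the controls numbered 4 and the Tfr1-null libraries 3. The labels name no Cre line for the deletion. The labels do not say whether replicates came from separate mice, so p-values measure the spread between libraries, which may be partly technical.

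The labels of 2 libraries were doubtful, so each comparison was fitted for all 14 libraries as labelled and for the 12 that remain without them. A difference printed with no set of libraries named is that of the 12. The library labelled Tfr1-null 3 weeks 1 is a control by its source name, and its signal at the middle control probe set of Tfrc, the gene of transferrin receptor 1, was 8.82 log2 units. The 3 controls of that age read 8.80 to 8.86 there and the other 3 Tfr1-null libraries 10.70 to 10.98. The library labelled control 10 weeks 1 read 11.43, inside the Tfr1-null range of 11.39 to 11.69 and above the other controls at 9.17 to 9.86. The 5′ control probe set of Tfrc ran the other way, lower in Tfr1-null libraries. At 3 weeks it read 6.88 to 7.73 in Tfr1-null libraries 2 to 4 and 9.50 to 9.59 in controls, with 9.67 in the doubtful library. At 10 weeks it read 7.79 to 9.29 in Tfr1-null libraries and 9.63 to 10.44 in controls 2 to 4, with 8.55 in the doubtful one. Both probe sets thus placed each doubtful library nearer to the libraries of the other genotype, and the labels do not name the deleted exons. Neither library was chosen by a value of the 10 genes. Array medians lay at 6.41 to 6.47 at 3 weeks and at 7.36 to 7.43 at 10 weeks, so no level is compared across ages. All 10 dopaminergic markers looked for, Th and Slc6a3 among them, were above the 25th percentile of the array in every library, as were 47 of 51 markers of other brain cells and all 13 member probe sets. The libraries are bulk samples, so fewer cells of a type and less RNA per cell cannot be told apart.

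Immediate early genes are switched on within minutes of a stimulus, through factors that are already in the cell, and need no new protein. Many encode transcription factors. Fos family and Jun family proteins pair into AP-1, which binds DNA and sets a later wave of genes, while others of the set encode proteins that act at synapses or that shut the signal off again. In neurons they are widely read as markers of firing, growth factor signalling, stress or injury.

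RefSeq's table of promoter windows (GRCm38.p6) was searched for the members, and windows of 8 of the 10 genes were used, with none for Egr1 and Arc. The search left out a whole chromosome, so a missing window does not show that the table had no entry. The windows run from 250 bases before the listed start to the base before it, and 6 are printed 5′ to 3′ on the gene's strand: Fosl2, Jund and Dusp1, whose signals were called higher at 10 weeks in 12 libraries, and Fos, Nr4a1 and Btg2 for comparison. Capitals mark the cAMP response element TGACGTCA, its shorter form TGACG, and the site GCGGGGGCG, a variant of the sequence that Egr1 protein binds, on either strand. The windows are Fosl2 at chr5:32136222-32136471 (+ strand), Jund at chr8:70697489-70697738 (+ strand), Dusp1 at chr17:26508473-26508722 (- strand), Fos at chr12:85473640-85473889 (+ strand), Nr4a1 at chr15:101266596-101266845 (+ strand) and Btg2 at chr1:134079156-134079405 (- strand).
Fosl2: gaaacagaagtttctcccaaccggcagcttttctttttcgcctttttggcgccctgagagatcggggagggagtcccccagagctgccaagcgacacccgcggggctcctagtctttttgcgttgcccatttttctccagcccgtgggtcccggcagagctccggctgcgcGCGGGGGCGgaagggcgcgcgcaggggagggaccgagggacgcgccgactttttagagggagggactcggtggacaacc
Jund: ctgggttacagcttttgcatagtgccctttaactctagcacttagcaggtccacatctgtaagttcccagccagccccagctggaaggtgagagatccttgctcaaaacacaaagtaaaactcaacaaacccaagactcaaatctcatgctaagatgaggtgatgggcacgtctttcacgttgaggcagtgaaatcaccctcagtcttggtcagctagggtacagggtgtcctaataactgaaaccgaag
Dusp1: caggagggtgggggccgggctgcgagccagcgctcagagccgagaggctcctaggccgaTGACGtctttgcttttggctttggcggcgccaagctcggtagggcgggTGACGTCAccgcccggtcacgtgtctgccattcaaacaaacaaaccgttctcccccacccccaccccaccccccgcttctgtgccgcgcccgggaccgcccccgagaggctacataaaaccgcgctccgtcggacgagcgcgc
Fos: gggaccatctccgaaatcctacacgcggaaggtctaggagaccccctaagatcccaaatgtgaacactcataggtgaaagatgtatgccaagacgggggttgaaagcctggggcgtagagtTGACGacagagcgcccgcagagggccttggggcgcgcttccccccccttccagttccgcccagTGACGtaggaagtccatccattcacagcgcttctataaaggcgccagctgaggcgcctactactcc
Nr4a1: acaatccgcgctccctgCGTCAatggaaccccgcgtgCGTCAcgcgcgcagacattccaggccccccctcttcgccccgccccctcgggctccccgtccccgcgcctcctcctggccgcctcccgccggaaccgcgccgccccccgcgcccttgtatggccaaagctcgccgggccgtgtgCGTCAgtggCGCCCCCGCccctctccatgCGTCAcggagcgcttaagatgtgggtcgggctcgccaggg
Btg2: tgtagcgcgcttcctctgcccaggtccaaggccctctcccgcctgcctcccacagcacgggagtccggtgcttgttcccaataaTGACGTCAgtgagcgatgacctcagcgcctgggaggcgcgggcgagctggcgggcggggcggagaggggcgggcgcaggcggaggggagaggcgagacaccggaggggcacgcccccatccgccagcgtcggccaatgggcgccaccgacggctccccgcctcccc
The full element TGACGTCA stood in 2 of the 8 windows, at 143 to 136 bases before the start in Dusp1 and at 166 to 159 in Btg2. It was in 1.55% of the 32851 windows of the table. TGACG alone, which the full element contains, was in 6 of 8 windows against 17.8% of all. Fos held it at 129 to 125 and at 66 to 62 bases before the start. The Egr1 site, searched as GCGTGGGCG or GCGGGGGCG, was in 3 of 8 windows (Fosl2, Fosb and Nr4a1) against 3.06% of all. The AP-1 site TGACTCA, found in 4.46% of all windows, and the CArG box, found in 1.47%, were in 0 of 8. The members' windows were 47.6% to 74.4% G and C, against a median of 52.4%, so G-rich letters are more frequent in most of them. These matches describe letters in a short window and not binding.

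**Figure D1:**
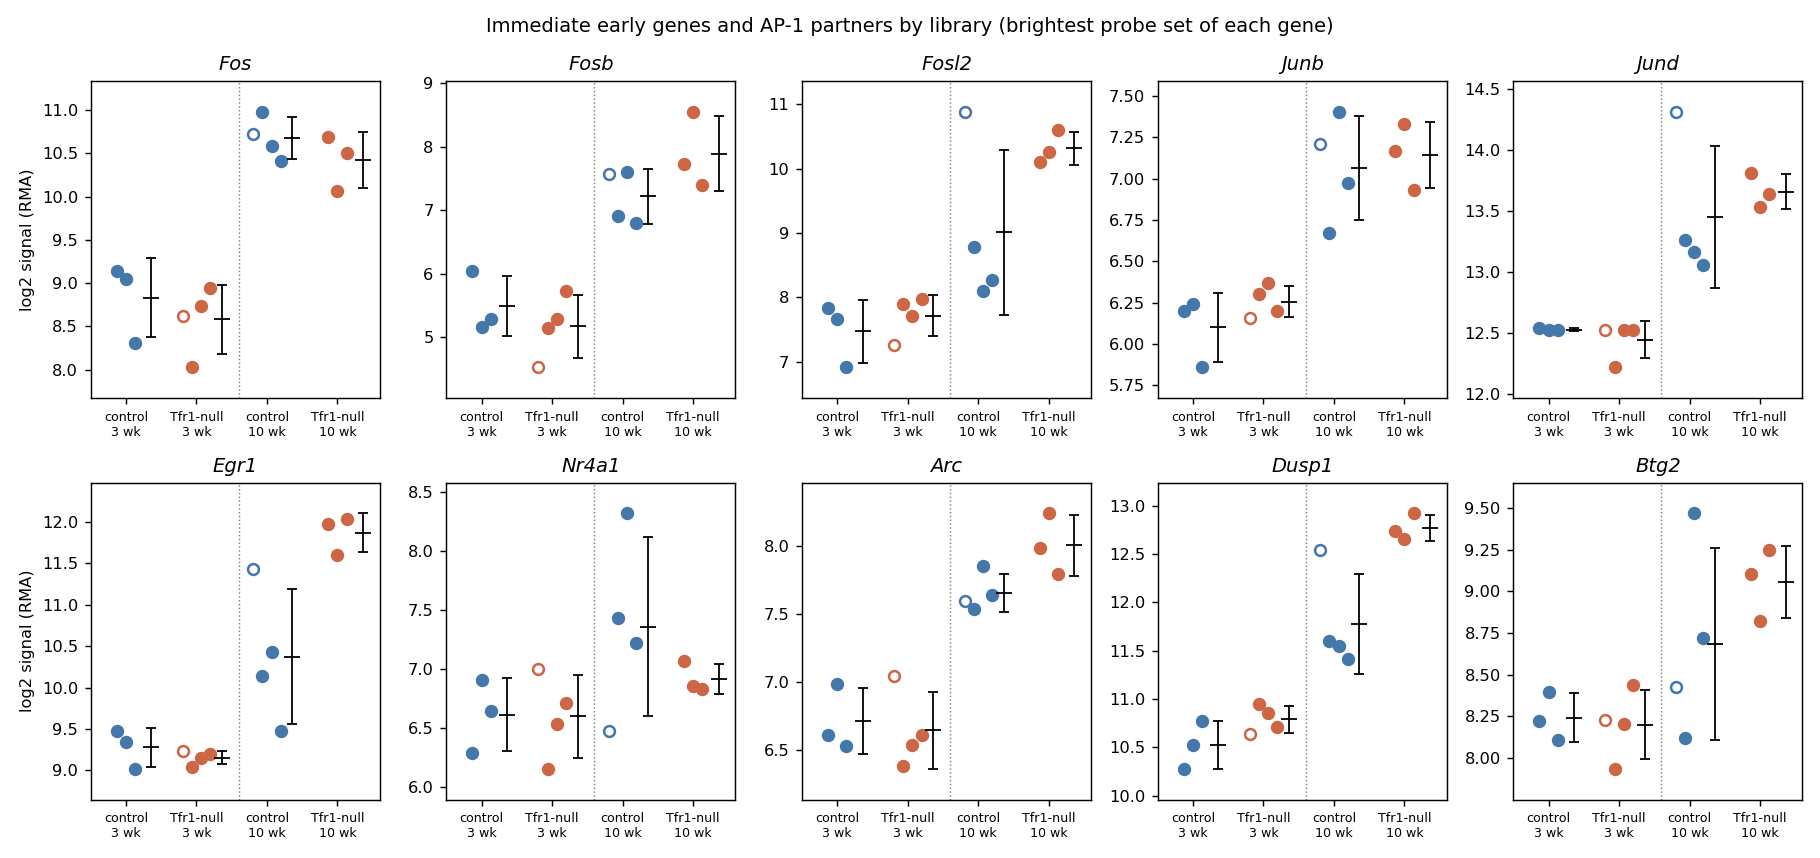
Log2 signal (RMA) of the 10 genes in each library, 1 panel a gene, by age and genotype. Points are libraries, open points are the 2 with doubtful labels, bars are group means ± SD over all libraries as labelled, and levels are not comparable across ages. At 10 weeks the filled Tfr1-null points of Egr1, Dusp1, Fosl2 and Jund lie above every filled control point, and the open control point lies near or above them.

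In the 12 libraries at 10 weeks, Fosl2, Egr1, Dusp1 and Jund were higher in Tfr1-null neurons, by 3.81-fold, 3.61-fold, 2.38-fold and 1.41-fold, and Fos, Fosb, Junb, Nr4a1, Arc and Btg2 were not called. That made 4 of 10 genes called higher and 0 lower at an adjusted p under 0.05, where 4.73% of all genes were called higher and 6.34% lower (11.1% in all). The difference was above 0 in 8 of 10 members and below 0 in Fos and Nr4a1, and the members' median was 0.41 log2 units against -0.01 for all genes. With all 14 libraries 1 of 10 was called, Egr1, where 1.21% of all genes were called (0.594% higher and 0.616% lower). In these 8 of 10 differences were again above 0, and the median was 0.36 against -0.02 for all genes.

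Of the 5 members that are AP-1 subunits, Fosl2 had the largest difference at 10 weeks in both sets of libraries. Fosl2 encodes Fra-2, a Fos family protein that pairs with Jun proteins. Its brighter probe set read 10.10, 10.26 and 10.60 in Tfr1-null libraries 1 to 3 and 8.79, 8.10 and 8.28 in controls 2 to 4, and 10.89 in the library labelled control 10 weeks 1. Each Tfr1-null library was above each of controls 2 to 4, and the doubtful library was above all others. The means were 10.32 ± 0.26 (SD, n = 3) and 8.39 ± 0.36 (SD, n = 3), a difference of 1.93 log2 units (SE 0.25, 95% interval 1.39 to 2.47, limma adjusted p = 0.000916). With 14 libraries it was 1.31 (SE 0.52, adjusted p = 0.191). The dimmer probe set of Fosl2 read 8.89, 9.08 and 8.77 in Tfr1-null libraries, 7.37, 7.04 and 7.49 in controls 2 to 4, and 8.81 in the doubtful one. Fitted among all probe sets, it differed by 1.61 (SE 0.13, adjusted p = 8.77e-05), where 9.33% of all probe sets were called, so both probe sets gave the same call.

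Jund encodes a Jun family protein that is present in resting cells, and its call rested on 1 of its probe sets. The brighter one read 13.81, 13.53 and 13.64 in Tfr1-null libraries and 13.26, 13.16 and 13.06 in controls 2 to 4, while the library labelled control 10 weeks 1 was highest at 14.31. In 12 libraries the difference was 0.50 (SE 0.11, 95% interval 0.25 to 0.74, adjusted p = 0.0174), and in 14 it was 0.21 (SE 0.24, adjusted p = 0.668). Leaving out Tfr1-null 10 weeks 1 ended the call (0.42, adjusted p = 0.0555). The dimmer probe set overlapped between genotypes, at 7.61 to 7.99 in Tfr1-null libraries and 7.77 to 8.23 in controls 2 to 4, with a difference of -0.17 (SE 0.15, adjusted p = 0.545). With the mean of both probe sets Jund was not called (0.16, adjusted p = 0.322), nor with each age fitted alone (adjusted p = 0.13) or with array weights (adjusted p = 0.104).

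Fos, the most used marker of neuronal firing, read 10.69, 10.06 and 10.50 in Tfr1-null libraries and 10.98, 10.59 and 10.42 in controls 2 to 4, with 10.72 in the doubtful one. The groups overlapped, and the difference was -0.24 (SE 0.29, 95% interval -0.88 to 0.39, adjusted p = 0.655) in 12 libraries and -0.26 (SE 0.25, adjusted p = 0.609) in 14. The interval leaves out a rise of the size measured for Fosl2. Fosb, a Fos relative that can persist in neurons as a shortened form, read 7.72, 8.55 and 7.40 in Tfr1-null libraries and 6.90, 7.60 and 6.79 in controls 2 to 4. These overlapped through 1 library on each side. The difference was 0.79 (SE 0.33, 95% interval 0.06 to 1.53, adjusted p = 0.16). Junb, an inducible Jun protein, lay at 6.93 to 7.33 in Tfr1-null libraries and 6.67 to 7.40 in controls 2 to 4, a difference of 0.13 (SE 0.18, 95% interval -0.28 to 0.53, adjusted p = 0.723).

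Egr1 encodes a zinc-finger transcription factor that links growth factor and synaptic signals to transcription. It read 11.97, 11.60 and 12.03 in Tfr1-null libraries and 10.14, 10.43 and 9.48 in controls 2 to 4, with 11.44 in the library labelled control 10 weeks 1. The Tfr1-null libraries were above every control whether or not that library was counted. The means of the 12 libraries were 11.87 ± 0.23 (SD, n = 3) and 10.02 ± 0.49 (SD, n = 3), a difference of 1.85 (SE 0.22, 95% interval 1.37 to 2.34, adjusted p = 0.000588). In 14 libraries the difference was 1.50, or 2.82-fold (SE 0.33, 95% interval 0.79 to 2.20, adjusted p = 0.0469). That last call was lost on leaving out any of 13 of the 14 libraries in turn (adjusted p up to 0.115), and it was kept without control 10 weeks 1 (adjusted p = 0.000714). Without a library of 3 weeks the Egr1 difference stayed at 1.50. The number of all genes called at 10 weeks then fell from 220 to between 5 and 164.

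Nr4a1, an orphan nuclear receptor induced by many of the same stimuli, was the member with the lowest signal in Tfr1-null libraries relative to controls. It read 7.07, 6.86 and 6.83 in Tfr1-null libraries, 7.43, 8.32 and 7.22 in controls 2 to 4 and 6.47 in the doubtful library. Every Tfr1-null library was below controls 2 to 4, as for 12.7% of all genes, but the difference of -0.74 (SE 0.27, 95% interval -1.32 to -0.15) was not called (adjusted p = 0.103). Without control 10 weeks 4 it was called (-0.96, adjusted p = 0.0491). With 14 libraries it was -0.44 (SE 0.33, adjusted p = 0.492).

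Of the effectors, Dusp1 was the one that changed. It encodes a nuclear phosphatase that switches off MAP kinases. Its signal was 12.74, 12.66 and 12.92 in Tfr1-null libraries, 11.60, 11.55 and 11.42 in controls 2 to 4, and 12.54 in the library labelled control 10 weeks 1. The Tfr1-null libraries were above all controls, and the doubtful library stood nearer to them than to the other controls. The means of the 12 libraries were 12.77 ± 0.13 (SD, n = 3) and 11.52 ± 0.10 (SD, n = 3), a difference of 1.25 (SE 0.13, 95% interval 0.96 to 1.54, adjusted p = 0.00032). In 14 libraries it was 1.00 (SE 0.22, 95% interval 0.51 to 1.48, adjusted p = 0.0513). Egr1 and Dusp1 were the 2 members whose Tfr1-null libraries all lay above all 4 controls, against 4.48% of all genes. Among 12 libraries 4 members did so, against 9.87%.

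Arc, which encodes a synaptic protein that drives removal of AMPA receptors, read 7.99, 8.24 and 7.79 in Tfr1-null libraries and 7.54, 7.85 and 7.64 in controls 2 to 4, with 7.59 in the doubtful one. The difference was 0.33 (SE 0.15, 95% interval -0.01 to 0.67, adjusted p = 0.198). Btg2, an antiproliferative protein that promotes mRNA deadenylation, read 9.10, 8.82 and 9.25 in Tfr1-null libraries against 8.12, 9.47 and 8.72 in controls 2 to 4. The controls spanned the Tfr1-null values, and the difference was 0.29 (SE 0.28, adjusted p = 0.57). Its dimmer probe set differed by -0.01 (SE 0.18, adjusted p = 0.982).

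**Figure D2:**
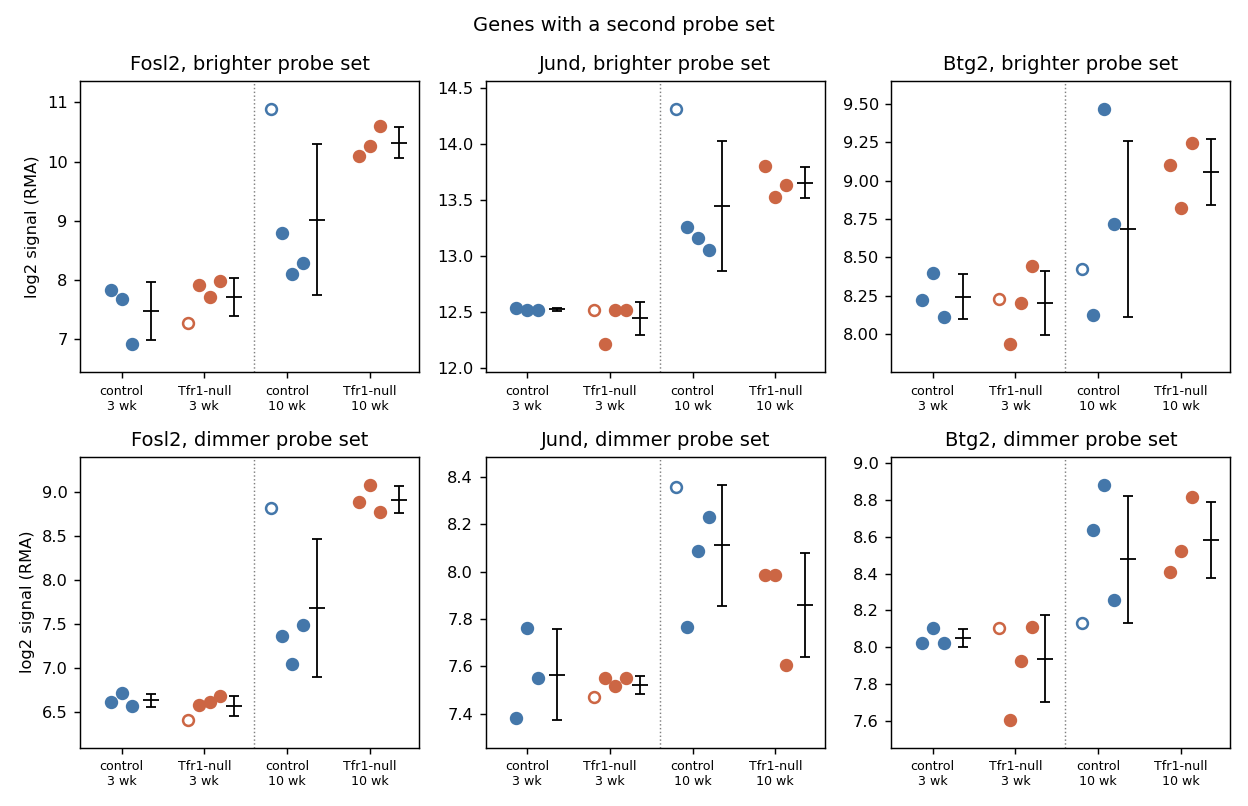
Log2 signal of both probe sets of Fosl2, Jund and Btg2 in each library, by age and genotype, with open points for the 2 libraries of doubtful label. At 10 weeks both Fosl2 probe sets separate Tfr1-null libraries from controls 2 to 4, and of the Jund probe sets only the brighter one does.

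At 3 weeks no member was called. In 14 libraries 0 of 10 passed (limma; 0 at an unadjusted p under 0.05), where 0% of all genes were called and 4.67% had an unadjusted p under 0.05. In the 12 libraries 0 of 10 passed and 1 had an unadjusted p under 0.05, where 1.84% of all genes were called and 10.6% had such a p. All members overlapped between genotypes in both sets of libraries, while 8.16% of all genes did not in the 14 and 25% in the 12. The member with the smallest p was Dusp1, at 10.95, 10.86 and 10.71 in Tfr1-null libraries 2 to 4 and 10.28, 10.52 and 10.77 in controls, with 10.64 in the library labelled Tfr1-null 3 weeks 1. Its difference was 0.32 (SE 0.13, 95% interval 0.02 to 0.61, adjusted p = 0.41).

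Egr1 at 3 weeks read 9.04, 9.16 and 9.20 in Tfr1-null libraries 2 to 4, against 9.48, 9.34 and 9.02 in controls, with 9.23 in the doubtful library. The difference was -0.15 (SE 0.22, 95% interval -0.63 to 0.34), which leaves out a rise of the size seen at 10 weeks. Fosl2 read 7.90, 7.71 and 7.97 in Tfr1-null libraries 2 to 4 against 7.83, 7.67 and 6.91 in controls, a difference of 0.39 (SE 0.25, 95% interval -0.15 to 0.94, adjusted p = 0.704). Its dimmer probe set differed by -0.01 (SE 0.13). Fos read 8.03, 8.73 and 8.95 in Tfr1-null libraries 2 to 4 against 9.14, 9.05 and 8.30 in controls, a difference of -0.26 (SE 0.29, 95% interval -0.90 to 0.37, adjusted p = 0.906). The brighter Jund probe set held the same value, 12.52 log2 units, in 5 of the 7 libraries of this age, so it ranks few of them. The other members differed by -0.20 (Arc) to 0.19 (Junb). The single library at this age with high signal for Y-linked genes and low Xist was a control. Without it Btg2 changed sign in both sets of libraries and Nr4a1 and Arc in the 14, all of them uncalled. Leaving out Tfr1-null 3 weeks 2, a library with high Xist, gave the same changes of sign. In the 12 libraries it also changed those of Fos, Fosb and Nr4a1.

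**Figure D3:**
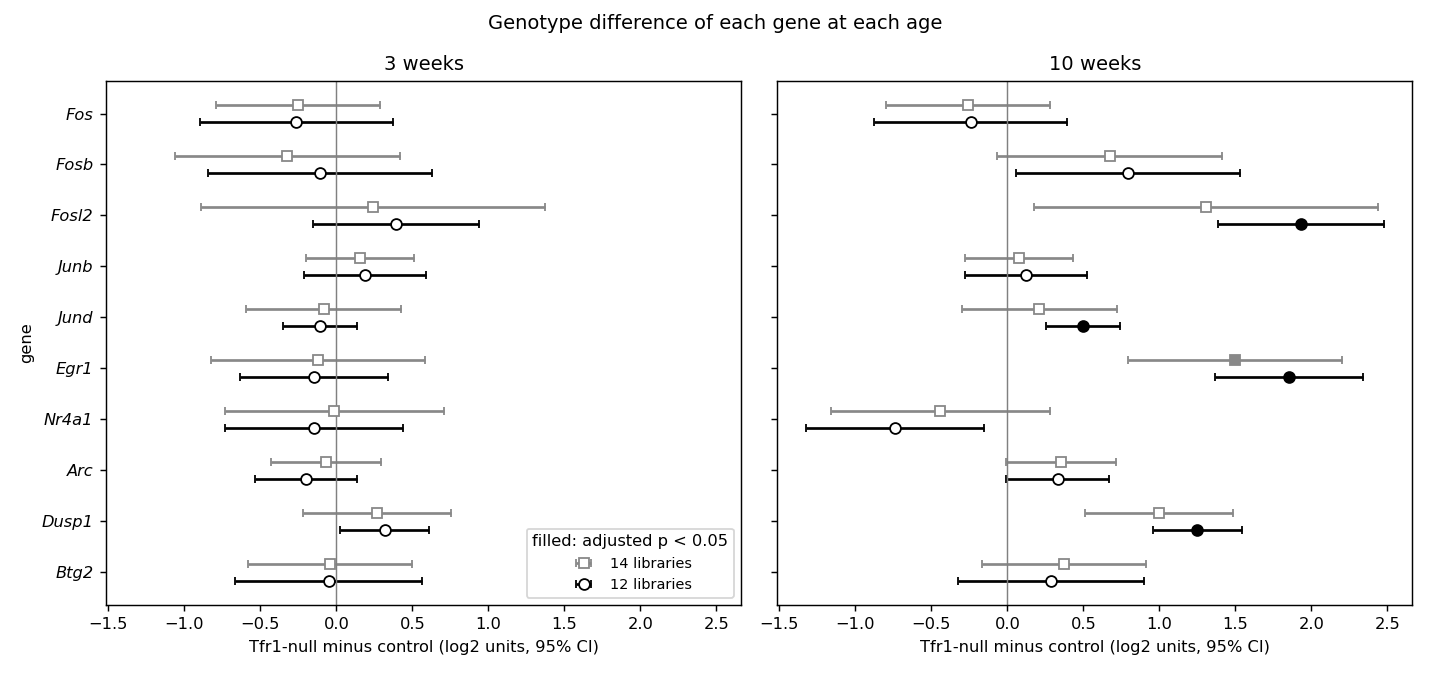
Difference in log2 signal, Tfr1-null minus control, for the 10 genes at 3 weeks and at 10 weeks. Squares are fits to 14 libraries, circles are fits to 12, bars are 95% intervals, and filled symbols have an adjusted p under 0.05. At 10 weeks the filled circles are Fosl2, Egr1, Dusp1 and Jund, the filled square is Egr1, and no symbol is filled at 3 weeks.

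The genotype difference itself was compared between ages. In 12 libraries Egr1 had the 1 called result of 10, where 0.286% of all genes were called (0.187% higher and 0.0989% lower). Its difference was larger at 10 weeks than at 3 weeks by 2.00 log2 units (SE 0.31, 95% interval 1.31 to 2.69, adjusted p = 0.0291). The value stayed between 1.73 and 2.21 on leaving out each library, but the call was lost in 8 of 12 cases (adjusted p up to 0.109), those of each library of 3 weeks and of Tfr1-null 10 weeks 1 and 3. Fosl2 was larger by 1.54 (SE 0.35, 95% interval 0.77 to 2.31, adjusted p = 0.12), Dusp1 by 0.93 (SE 0.19, adjusted p = 0.088) and Jund by 0.61 (SE 0.16, adjusted p = 0.171), none of them called. Fos gave 0.02 (SE 0.41, 95% interval -0.88 to 0.92). In 14 libraries 0 of 10 were called (2 at an unadjusted p under 0.05), where 0% of all genes were called and 7.48% had such a p. The dimmer Fosl2 probe set, fitted among all probe sets in 12 libraries, passed with 1.62 (SE 0.18, adjusted p = 0.00966), where 0.177% of all probe sets did. The ages appear to have been normalized apart. By Y-linked genes and Xist, 1 of the 7 libraries of 3 weeks came from males and 7 of the 7 of 10 weeks did, so a difference between ages and one between sexes cannot be told apart.

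Related genes were listed in 5 groups naming 96 genes, of which 87 were measured. In the 12 libraries at 10 weeks 20 were higher and 2 lower, with a median difference of 0.15, beside 4.73% higher and 6.34% lower of all genes and a median of -0.01. At 3 weeks 2 were higher and 2 lower, beside 0.682% and 1.16% of all genes. With 14 libraries 4 of 87 were higher at 10 weeks and 0 at 3 weeks, beside 0.594% and 0% of all genes. The 4 were Ier5 (0.89, SE 0.15, adjusted p = 0.0346), Inhba (2.91, SE 0.58, adjusted p = 0.039), Mrtfa (0.85, SE 0.17, adjusted p = 0.0418) and Dusp10 (1.59, SE 0.35, adjusted p = 0.0469). Leaving out each library gave 0 to 24 calls, 24 of them without control 10 weeks 1, while 5 to 1924 of all genes were called. The lists were made with earlier results of these libraries known.

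Among other AP-1 subunits and dimer partners 3 of 13 rose at 10 weeks in the 12 libraries and 0 fell, with a list median of 0.20. Jun, the main partner of Fos proteins, was 12.50 ± 0.11 (SD, n = 3) in Tfr1-null and 10.68 ± 0.18 (SD, n = 3) in control libraries, a difference of 1.82 (SE 0.13, adjusted p = 2.31e-05). In 14 libraries it was 1.41 (adjusted p = 0.0531). Atf3, a stress-induced partner of Jun in injured neurons, was 12.08 ± 0.44 (SD, n = 3) in Tfr1-null libraries. It was under the 25th percentile in each of controls 2 to 4. With these controls raised to that percentile, its mean was 6.59 log2 units higher in Tfr1-null libraries. The fitted difference, with the controls as measured, was 7.20 (limma adjusted p = 2.72e-07). The library labelled control 10 weeks 1 read 11.995, and in 14 libraries Atf3 was not called (adjusted p = 0.0938). Maff, a small Maf protein, was higher by 1.19 (adjusted p = 0.0097). At 3 weeks Atf3 was the 1 of 13 to rise, from 5.71 ± 0.26 (SD, n = 3) to 10.39 ± 0.55 (SD, n = 3), a difference of 4.69 (adjusted p = 2.07e-05). The library labelled Tfr1-null 3 weeks 1 read 5.99, and in 14 libraries the difference of 3.59 was not called (adjusted p = 0.99997).

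Of 16 other immediate early transcription factors 6 rose and 1 fell at 10 weeks, with a median of 0.48. Nfil3, a bZIP repressor induced by nerve injury, rose by 1.72 (SE 0.15, adjusted p = 8.33e-05), and it was also higher at 3 weeks, by 0.75 (adjusted p = 0.0258). That call at 3 weeks was lost without any 1 of the 6 libraries of that age (adjusted p up to 0.121). Csrnp1, Klf4 and Ier5 rose by 1.18, 1.36 and 1.02 (adjusted p = 0.000625, 0.00105 and 0.00113). Srf, the factor that binds the CArG box in promoters of many immediate early genes, fell by 0.70 (SE 0.19, adjusted p = 0.0351), a call lost in 9 of 12 cases on leaving out a library and kept without Tfr1-null 10 weeks 2, control 10 weeks 2 or control 10 weeks 4. Nr4a2, the receptor that maintains dopaminergic identity, was 13.42 ± 0.38 (SD, n = 3) in Tfr1-null and 13.32 ± 0.25 (SD, n = 3) in control libraries, a difference of 0.10 (adjusted p = 0.786). Npas4, a factor induced by calcium entry, was under the 25th percentile in every library of the 12 at 10 weeks, and no difference is given.

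Among 24 effectors 5 rose and 0 fell at 10 weeks, with a median of 0.11. Inhba, a subunit of activin, was 10.14 ± 0.67 (SD, n = 3) against 6.57 ± 0.46 (SD, n = 3), a difference of 3.57 (SE 0.35, adjusted p = 0.000204). Gadd45a, a stress-response protein, rose by 1.52 (adjusted p = 0.00112), the clock gene Per1 by 1.23 (adjusted p = 0.00172) and the neuropeptide precursor Vgf by 0.98 (adjusted p = 0.00594). At 3 weeks 0 rose and 2 fell. Ier3 was lower by 1.23 (adjusted p = 0.00191) and Pcsk1, a prohormone convertase, by 0.93 (adjusted p = 0.00284).

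Of 15 MAP kinase phosphatases and feedback inhibitors, the group to which Dusp1 belongs, 3 rose and 0 fell at 10 weeks, with a median of 0.43. Dusp10 rose by 1.92 (adjusted p = 0.00194), Dusp16 by 1.13 (adjusted p = 0.0242) and Dusp8 by 0.50 (adjusted p = 0.0392). Of 19 kinases and factors upstream 3 rose and 1 fell, with a median of 0.11. Mapk14, the kinase p38α, rose by 0.56 (adjusted p = 0.0191), the Srf cofactor Mrtfa by 0.85 (adjusted p = 0.0215) and Elk3 by 1.43 (adjusted p = 0.04). Mapk10, the neuronal kinase JNK3, fell by 0.46 (adjusted p = 0.013). On leaving out each library in turn, Dusp10 and Mapk10 kept their calls in 12 of 12 cases. Mapk14 lost its call without Tfr1-null 10 weeks 3 (adjusted p = 0.0585), Dusp16 without control 10 weeks 2 or 4, and Mrtfa without Tfr1-null 10 weeks 1, Tfr1-null 10 weeks 3 or control 10 weeks 3. Dusp8 lost its call in 10 of 12 cases and Elk3 in 11. At 3 weeks 0 of either list were called, and the smallest p-values were those of Spred2 (0.30, adjusted p = 0.471) and Mapk8 (0.42, adjusted p = 0.135). Between the ages, Jun (1.72, adjusted p = 0.005), Inhba (3.21, adjusted p = 0.0291), Csrnp1 (1.16, adjusted p = 0.0447) and Atf3 had called differences of the 87. Of all genes 0.286% were called between the ages in the 12 libraries. On leaving out each library Jun kept its call in 12 of 12 cases, Inhba in 6, Atf3 in 4 and Csrnp1 in 2.

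**Figure D4:**
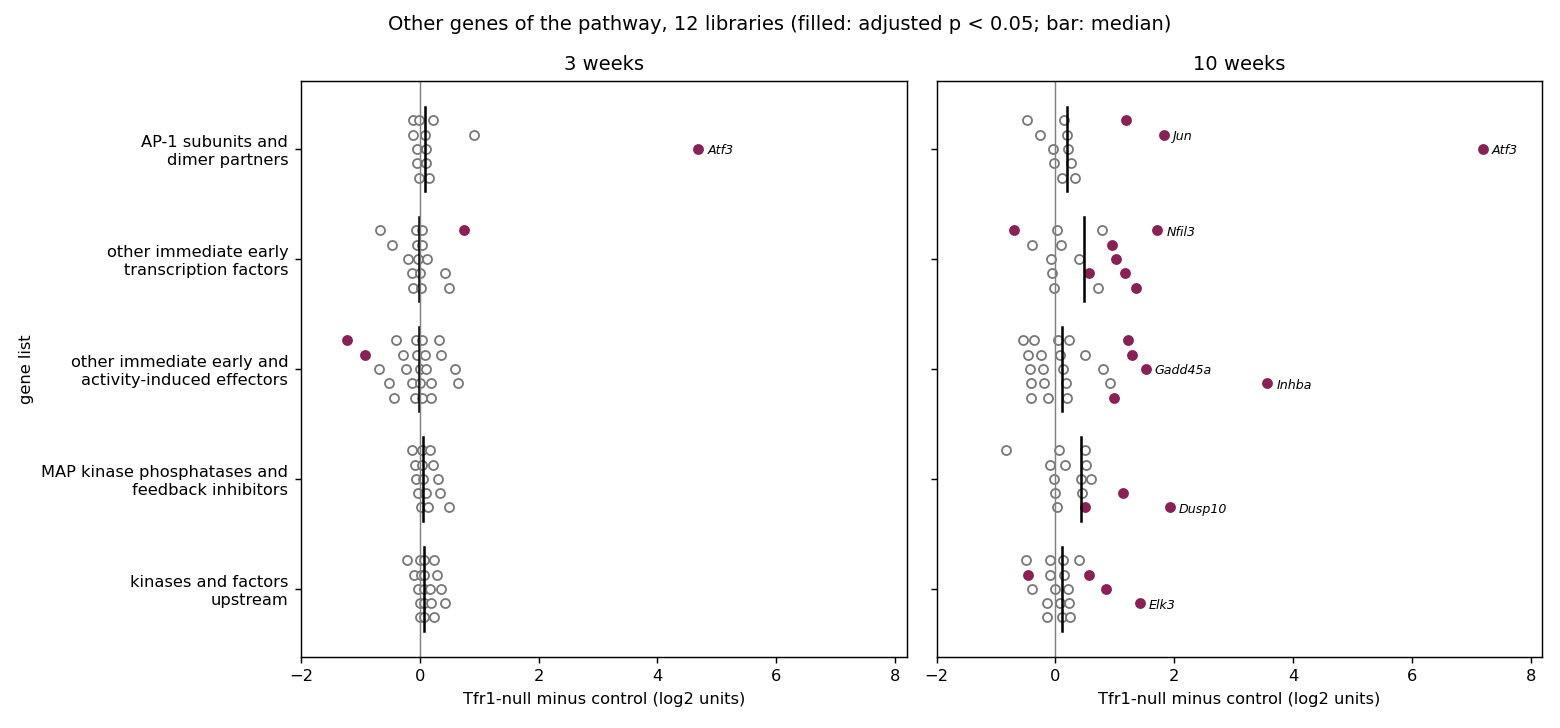
Difference in log2 signal, Tfr1-null minus control, in 12 libraries for each measured gene of the 5 lists, at 3 and 10 weeks. Each point is a gene, filled points have an adjusted p under 0.05, and the bar is the list's median. At 10 weeks 20 list genes are called higher and 2 lower, and at 3 weeks 2 and 2.

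Of 51 markers of microglia, astrocytes, oligodendrocytes, endothelial cells and pericytes, and GABAergic and glutamatergic neurons, 2 were higher at 10 weeks in the 12 libraries (Sox9 and Slc32a1) and 0 lower, and 0 were called in the other 3 comparisons of genotype. Of all genes, 4.73% were called higher and 6.34% lower at 10 weeks in the 12 libraries. At 3 weeks 1.84% were called in the 12 libraries and 0% in the 14. At 10 weeks the summed signal of the microglial markers was 13.11, 12.21 and 12.67 in Tfr1-null libraries and 12.47, 12.48 and 11.90 in controls 2 to 4. The library labelled control 10 weeks 1 read 13.28. For the astrocyte markers it was 14.67, 14.31 and 14.76 against 14.12, 14.60 and 14.29, with 14.82 in the doubtful library. In both lists Tfr1-null libraries 1 and 3 were above controls 2 to 4, and library 2 was among them. The median marker differences in the 12 libraries were 0.34 (microglia) and 0.36 (astrocytes), against -0.01 for all genes. The sums of the other 4 lists overlapped too. Tbr1 was the 1 marker under the 25th percentile in every library. Of the 10 dopaminergic markers 2 were lower at 10 weeks in the 12 libraries, Ddc and Drd2, beside 6.34% of all genes. In the 14 libraries 0 of the 10 were called at 10 weeks, where 1.21% of all genes were. The summed signal of the 10 at 10 weeks was 16.36, 16.66 and 16.44 in Tfr1-null libraries, below the 16.76, 16.77 and 16.83 of controls 2 to 4, with 16.39 in the library labelled control 10 weeks 1. At 3 weeks it was 15.74 to 15.90 in the 4 Tfr1-null libraries, below the 15.91 to 15.96 of the 3 controls. The part of these in the differences above was not tested.

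Likeness to Egr1 and to Fos was measured as Pearson's r over the 14 libraries after each age's mean was subtracted, as a description over libraries that share genotype and age. Closest to Egr1 were Pcolce2 (r = 0.96), Ier5 (r = 0.95), Stmn4 (r = 0.95), Inhba (r = 0.94) and Gm13889 (r = 0.94). Closest to Fos were Lhx4 (r = 0.86), Mmp7 (r = 0.82), Neurog1 (r = 0.79), Svs4 (r = 0.79) and Gdpd3 (r = 0.78). Svs4 was under the 25th percentile of the array in 14 of 14 libraries and Mmp7 in 13, so their correlations are between signals not above background. The sets share no gene, and the highest r for Fos was below the fifth for Egr1.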

How the data were processed

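Ribosome-bound mRNA was amplified from 50 ng of RNA with the NuGEN Ovation V2 kit and measured on Affymetrix mouse arrays, per the labels' protocols. The authors' deposited values are log2 signals made by RMA in Partek 6.5, per the submitters' processing notes. The sources used here give no probe set positions.

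Of 45101 probe sets, 34945 with 1 gene symbol, control probe sets left out, covered 18193 genes, each taken as its probe set with the highest mean. Differences are limma fits (lmFit and eBayes) with 4 group means, Benjamini-Hochberg adjusted over all genes of a contrast and called under 0.05. Residual degrees of freedom were 10 with 14 libraries and 8 with 12. A gene is not above background in a group whose libraries are all under the 25th percentile of their array. The fit without the 2 doubtful libraries was added after their Tfrc signals were seen. SE is a contrast's moderated standard error.

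The members, lists and tests were chosen with earlier results of these data known. Named were all members, up to 4 called genes per list, direction and age in 12 libraries (or the 1 with the smallest p), Jun, Atf3, Nr4a2 and Npas4, and the 5 genes most like Egr1 and Fos. Sox9, Slc32a1, Ddc and Drd2 were named after their values were seen. Libraries of 1 age with the same replicate number hardly correlated in their deviations from group means (r between -0.03 and 0.09). The doubtful libraries were among them, so a pairing is not excluded. Fits were tested on simulated data. Arrays give no counts, so the number of arrays limits precision. Tools were R 4.3.3, limma 3.58.1, Python 3.11.15, pandas 2.3.3 and matplotlib 3.10.9.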

Additional observations from a re-analysis of the deposited data

Results flagged for a closer look

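For each of 13 probe sets, both groups of 4 libraries (Tfr1-null at 3 weeks and control at 10 weeks) were looked at, 26 in all. A library stood apart from the other 3 in 3 cases by a test that marks about 1 group in 20 by chance. Jund (brighter probe set) in Tfr1-null 3 weeks 2 read 12.22 against 12.52 in the other 3, which share 1 value, so the gap made up the whole range (ratio 1). In the library labelled control 10 weeks 1, Jund read 14.31 with the nearest control at 13.26 (ratio 0.842), and Dusp1 read 12.54 with the nearest at 11.60 (ratio 0.837). Egr1 differed between ages in its genotype difference, by 2.00 log2 units in 12 libraries (limma), a call lost on leaving out 8 of the 12.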

How the results depend on the processing

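Among single-gene results, 483 kept direction and side of the threshold on leaving out a library and 343 under other settings, while 19 and 3 changed sign. With 14 libraries at 10 weeks, Egr1 was the 1 member called. This became 0 with all probe sets fitted, with the mean of a gene's probe sets, with each age fitted alone, with array weights and with the replicate block, and 2 (Egr1 and Dusp1) with a filter on low values or a moderation trend. Of all 18193 genes 220 were called in the main fit, 141 with all probe sets fitted and 86 with the mean of probe sets. With each age fitted alone, array weights or the block, 0 of all genes were called. With the filter 264 of 15700 were called, and with the trend 283 of 18193. Leaving out a library gave 0 to 4 members, with 4 without control 10 weeks 1, while 5 to 1924 of all genes were called. With 12 libraries the 4 calls became 0 with the replicate block and 3 to 5 on leaving out a library. With the block 20 of all 18193 genes were called, against 2015 in the main fit. Fosl2, Egr1 and Dusp1 were each called in 20 of 21 settings and Jund in 16, its call ending with the mean of probe sets, each age fitted alone, array weights, the block and without Tfr1-null 10 weeks 1. Whether the replicate numbers pair libraries is not known, and the block left 2 residual degrees of freedom. Between ages, the 1 call of 12 libraries became 2 with the mean of probe sets (Fosl2 and Egr1) and 0 with the replicate block. Of all genes 57 and 0 were called there, against 52 in the main fit. On leaving out a library the 1 call became 0 to 1, and the 0 of 14 libraries 0 to 1. Of the 87 list genes, the 4 called at 10 weeks in 14 libraries became 1 with the mean of probe sets, 0 with each age alone, array weights or the block, 7 with the trend and 0 to 24 on leaving out a library. The 0 at 3 weeks became 4 with array weights, where 589 of all genes were called, and 0 to 1 on leaving out a library. In 12 libraries the 20 higher and 2 lower at 10 weeks became, in all, 7 with each age alone, 1 with the block and 17 to 28, and the 4 at 3 weeks became 9 with each age alone, 11 with array weights, 0 with the block and 3 to 5. Of all genes in 12 libraries, 244 were called at 10 weeks with each age alone. At 3 weeks 918 were called with each age alone, 1360 with array weights and 0 with the block. The causes were not tested. Uncalled values changed sign for Nr4a1 at 3 weeks in 14 libraries (0.0025 with quantile normalization, 0.0071 with medians centred) and for Jund at 10 weeks (-0.021 with the mean of probe sets). On leaving out a library at 3 weeks in 14 libraries, Nr4a1 ranged from -0.17 to 0.13, Arc from -0.20 to 0.0716, Btg2 from -0.12 to 0.0460 and Fosl2 from -0.0394 to 0.42. In 12 libraries at 3 weeks, Fosb ranged from -0.28 to 0.16, Btg2 from -0.18 to 0.0775, Fos from -0.53 to 0.00834 and Nr4a1 from -0.31 to 0.00981. At 10 weeks Junb ranged from -0.0530 to 0.19 in 14 and -0.0476 to 0.32 in 12 libraries, and Btg2 from -0.0359 to 0.64 in 12. Probe sets near the background of the array give compressed differences.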
